A study of Homo sapiens with 6 samples.

Results

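The genes described here are 33 human genes with very large chromosomal spans, several of them common fragile sites, listed by name and looked up by the symbol column of the deposited tables. The list was chosen by gene length and with the 0 h against 24 h values of these same libraries known, so for these genes that comparison is given as a description and supports nothing by itself. Of the 33 genes, 32 have a row among the 28565 genes of the count table and NAALADL2 was not analysed here. A total of 30 passed the filter on low counts and are among the 13389 genes tested. FHIT, a dinucleotide hydrolase whose gene spans a well-known fragile site, had 4, 1 and 5 counts at 0 h against 4, 2 and 4 at 24 h. PRKG1, a cGMP-dependent kinase, had 2, 0 and 0 counts at 0 h against 0, 0 and 0 at 24 h. These 2 genes were too low to test, and no fold change is given for them.

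Expression was read from 6 RNA-seq libraries made from HK-2, an immortalised cell line of human renal proximal tubule. All 6 carry a transfected plasmid that overexpresses a long noncoding RNA, called LncR2 in the titles, and incubation after transfection lasted 48 h. The labels give 3 libraries as exposed to cisplatin, a platinum drug that crosslinks DNA, for 0 h and 3 for 24 h. Control-plasmid cells were not analysed here, so cisplatin cannot be told apart from time after transfection, and the lncRNA's own effect is not measured. Separate cultures are not stated for libraries of the same time, and the series' design speaks of 2 biological replicates where 3 are labelled, so p-values rest on the spread between these libraries alone, which may be technical. Total counts ran from 5028881 to 5844246 at 0 h and from 6022268 to 7248754 at 24 h. Levels are CPM, counts relative to library totals scaled by TMM, a method that sets the typical gene to no change. Differences between the times come from edgeR's quasi-likelihood fit of all genes, on the log2 scale with 24 h over 0 h, given ± the standard error with n = 3 libraries a group. Reads carry no molecular identifiers, so counting error in these values treats each as a separate molecule.

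Markers of cell types were read in the same libraries. Of 7 epithelial markers, CDH1 alone had under 10 counts over the 6 libraries. Of 8 proximal tubule markers, AQP1, LRP2, ANPEP, SLC34A1, SLC5A2 and SLC22A6 had under 10 counts or were not analysed here, so the markers that define the labelled tubule are largely absent, and CUBN and GGT1 were present. The 4 endothelial markers and 3 of 4 immune markers (PTPRC, CD3E and LYZ) likewise had under 10 counts or were not analysed here. Summed levels of the 4 mesenchymal markers were 14.4 to 15.5 CPM at 0 h and 15.6 to 19.0 CPM at 24 h, and those of the 4 immune markers 1.40 to 2.16 CPM and 1.10 to 2.17 CPM. The 4 neuronal markers summed to 16.9 to 20.6 CPM at 0 h and 13.03 to 16.6 CPM at 24 h, with RBFOX3 and STMN2 among those under 10 counts or not analysed here, and 0 genes of these lists were called. The part of these cell types in the results was not tested.

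Background on long genes is needed to read the values. RNA polymerase II must copy the whole span of a gene, introns included, before a full transcript exists, so a very long gene takes hours to copy and offers a large target for DNA lesions. Cisplatin crosslinks on the template strand stall the polymerase, and agents that block elongation are known to lower long transcripts more than short ones. Some very long genes also break under replication stress, and are then called common fragile sites. The reads here were counted per gene and measure accumulated RNA, not the rate of transcription.

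The genes share an architecture that the symbols alone do not show. In GENCODE 29 on GRCh38 the spans of the 32 genes run from 291 kb (TNRC6B) to 2058 kb (MACROD2), with a median of 737 kb. Exons cover 0.362% (FHIT) to 6.87% (TNRC6B) of the span, with a median of 1.56%. The longest single intron runs from 52.7 kb (FTO) to 702 kb (TBC1D5, where it rests on a GENCODE start far from those in RefSeq). Chromosome 3 holds 8 of the 32 genes, and no other chromosome holds more than 3. Transcript GC content has a median of 43.9% in the 30 tested genes against 47.9% in all tested genes, and the summed exons have a median length of 11.5 kb against 4.92 kb.

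The FPKM values were divided by lengths on the scale of exons, not of spans. Whether reads in introns were counted does not follow from that length, and is not given in the sources used here. The length by which the authors divided follows from the ratio of count to FPKM, once the library total is known from single-transcript genes. In the 30 tested genes that length ran from 2299 bp (SMYD3) to 22869 bp (LPP), which is 23.6% to 100% of the annotated exon length and 0.260% to 6.46% of the span. MACROD2, which spans 2058 kb, was divided by 5350 bp, and TBC1D5, which spans 1288 kb, by 8957 bp. Changes in intron reads of these genes, which would bear on nascent RNA, are not given separately by these tables.

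Genes that lie inside the long genes could share reads with them. A total of 69 annotated genes with a row lie wholly inside 26 of the 32 spans, of which 53 are on the strand of their host, and 46 had under 10 counts over the 6 libraries. Only 7 passed the filter, and 0 of these were called by edgeR's quasi-likelihood test in the main fit. FLRT3, a cell-adhesion protein encoded on the opposite strand inside MACROD2, had 255 counts in all against 64 of its host, and its difference was 0.74 ± 0.23. CSTF2T, an mRNA cleavage factor inside PRKG1, had 1297 counts against 2 of its host, with 0.20 ± 0.13. Of the 18 alternatives of the analysis, FLRT3 was called in 6 and CSTF2T in 1. Whether counting used strand is not given in the sources used here, so MACROD2 counts are uncertain on this account.

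The start regions of 30 listed genes, NAALADL2 included, were matched in a RefSeq table (GRCh38.p14), and EXT1, PARD3 and VPS13B were not matched. These 30 genes have 65 listed starts, with a median of 2 and up to 10, in ANK2, against a median of 1 over the 27305 genes of the table. The start nearest the GENCODE 5′ end was taken for each gene, and in 25 of them it lies within 1 kb of that end. It lies farther inside in FTO, RAD51B, PRKG1 and TBC1D5, and the span of NAALADL2 was not analysed here. In TBC1D5 it lies 702 kb inside, past the longest intron, and from that start the gene spans 585 kb in place of 1288 kb. In the 250 bases before it the genes hold a median of 17 CG dinucleotides (from 0 to 42), against a median of 11 over all 35116 windows of that table, and 96.7% hold at least 1 against 93.9%. CG was searched as the letters CG, which read the same on both strands. Only 3 windows are shown, because the values below turn on these genes: ANK2, with the largest fall, MACROD2, with the longest span, and FNDC3B, the most abundant. All 3 are on the plus strand, read 5′ to 3′ and end at the base before the start, with CG in capitals.

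ANK2, chr4:112817855-112818104, 4 CG: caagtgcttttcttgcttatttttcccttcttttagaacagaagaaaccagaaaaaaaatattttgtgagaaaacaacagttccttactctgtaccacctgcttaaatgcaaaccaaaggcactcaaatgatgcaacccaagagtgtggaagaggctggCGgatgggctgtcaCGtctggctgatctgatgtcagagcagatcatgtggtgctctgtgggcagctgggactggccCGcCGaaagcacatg

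MACROD2, chr20:13995266-13995515, 29 CG: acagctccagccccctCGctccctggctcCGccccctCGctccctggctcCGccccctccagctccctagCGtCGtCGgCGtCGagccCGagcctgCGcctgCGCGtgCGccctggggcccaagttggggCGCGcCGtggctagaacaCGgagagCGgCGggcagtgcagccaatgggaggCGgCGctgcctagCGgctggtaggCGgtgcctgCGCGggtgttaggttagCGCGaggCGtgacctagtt

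FNDC3B, chr3:172039328-172039577, 14 CG: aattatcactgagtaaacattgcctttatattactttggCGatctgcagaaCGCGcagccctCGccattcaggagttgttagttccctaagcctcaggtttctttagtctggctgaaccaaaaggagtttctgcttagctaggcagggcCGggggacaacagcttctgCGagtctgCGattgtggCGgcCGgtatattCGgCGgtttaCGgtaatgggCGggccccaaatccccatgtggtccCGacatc

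The ANK2 window holds few CG dinucleotides, while that of MACROD2 holds many. ANK2 has 9 other listed starts along its span, and the counts do not tell which of them HK-2 cells use.

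Most of the very long genes had a fold change below that of the median gene. Of the 30 tested, 27 had a fold change below 0, and the median was -0.26 on the log2 scale with quartiles of -0.36 and -0.13, beside a median of -0.00 over all genes tested. A gene is called where its Benjamini-Hochberg adjusted p over all genes tested is under 0.05. By that rule 2 of the 30 fell, ANK2 and VPS13B, against 2.08% of all genes tested, and 0 rose, against 0.866%. In 14 of the 30 every 24 h library was below every 0 h library in CPM, which held for 11.7% of all genes tested, and in 0 every 24 h library was above, against 10.9%. The list and this contrast are not independent, so nothing is read from these shares.

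The direction depends on how libraries are scaled. The FPKM table divides by totals that rose less from 0 h to 24 h than the counts of genes did, and with those totals the median of all genes moved up to 0.24 and that of the very long genes was -0.03, with 17 of 30 below 0. In deposited FPKM every 24 h library was below every 0 h library in 4 of the 30 (ANK2, MACROD2, FTO and MAGI1), against 3.01% of all genes tested, and above in 4 (FNDC3B, DIAPH3, SMYD3 and MAML2), against 33.3%. The distance to the median gene was nearly equal under both scalings, -0.26 with TMM and -0.27 with the totals behind FPKM. The values are thus relative to other genes, and the amount of RNA per cell is not given. Fewer cells expressing a gene and less RNA per cell cannot be told apart in these bulk libraries.

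**Figure D1:**
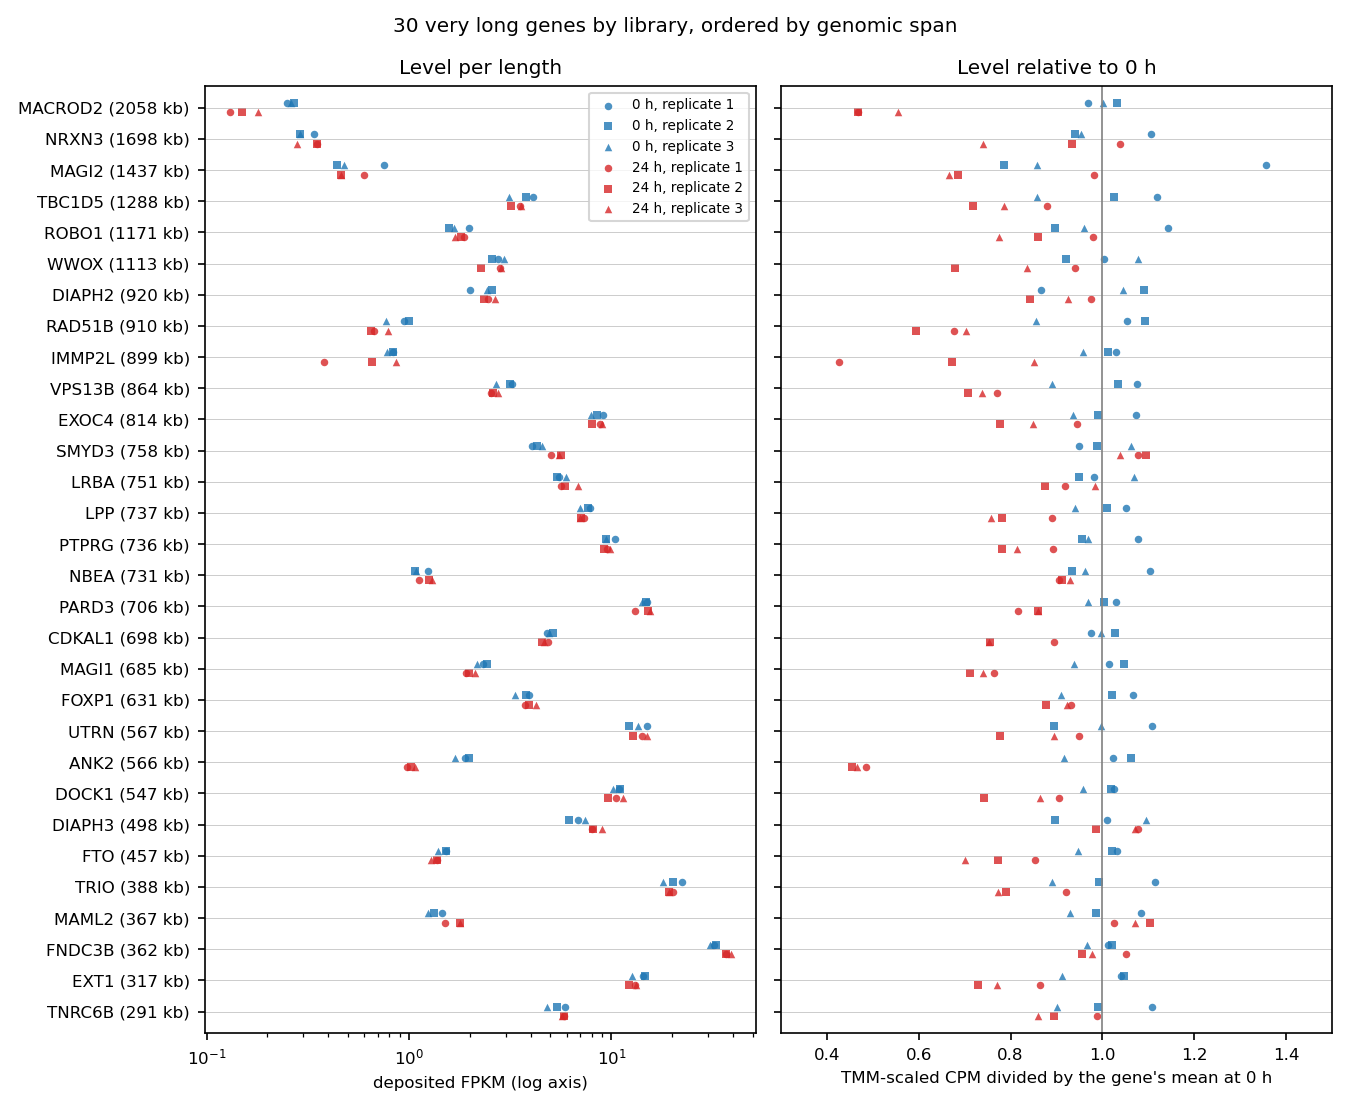
Level of each of the 30 tested very long genes in each library, ordered by span, as deposited FPKM on a log axis (left) and as TMM-scaled CPM divided by the gene's mean at 0 h (right). Circles, squares and triangles are replicates 1, 2 and 3; blue is 0 h and red is 24 h. The 24 h libraries of ANK2, at 22.3 to 23.8 CPM, stand far to the left of those at 0 h, at 44.8 to 51.9 CPM, and those of MACROD2 likewise.

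Per exon length the very long genes covered a wide range of levels. Mean FPKM over the 6 libraries ran from 0.207 in MACROD2 to 34.8 in FNDC3B, with a median of 3.69 over the 30 tested genes. FNDC3B stood at 32.03 ± 1.12 and 37.5 ± 1.13 FPKM, TRIO at 20.2 ± 2.25 and 19.6 ± 0.561 FPKM, PARD3 at 14.6 ± 0.463 and 14.6 ± 1.36 FPKM, UTRN at 13.6 ± 1.37 and 13.97 ± 1.15 FPKM, EXT1 at 13.9 ± 1.12 and 12.9 ± 0.556 FPKM and DOCK1 at 10.7 ± 0.435 and 10.5 ± 0.930 FPKM at 0 h and 24 h (mean ± SD, n = 3). At the other end of the same scale were MACROD2, at 0.260 ± 0.0100 and 0.153 ± 0.0252 FPKM, and NRXN3, at 0.307 ± 0.0289 and 0.327 ± 0.0404 FPKM. The most abundant genes are thus not the longest ones, and the fold changes of the low genes carry the larger standard errors.

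ANK2 encodes ankyrin-B, an adaptor that ties membrane proteins to the spectrin skeleton. It lies on chromosome 4 from 112818109 to 113383740 (ENSG00000145362.16). Its level was 50.04, 51.9 and 44.8 CPM in the 0 h libraries, replicates 1 to 3, against 23.8, 22.3 and 22.8 CPM in those at 24 h. All 24 h libraries sat close together and below the lowest 0 h library. ANK2 fell by 1.09 ± 0.12, with means of 48.9 ± 3.68 CPM at 0 h and 22.9 ± 0.748 CPM at 24 h (± SD, n = 3). It was called under all 18 alternatives of the analysis, with fold changes from -1.15 to -0.50, in which the value nearest 0 comes from log2(FPKM + 1).

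VPS13B, a lipid-transfer protein of the Golgi, lies on chromosome 8 from 99013266 to 99877580 (ENSG00000132549.18). Its level was 84.7, 81.3 and 70.1 CPM in the 0 h libraries, replicates 1 to 3, against 60.7, 55.7 and 58.01 CPM in those at 24 h. The groups did not overlap in CPM, although 0 h replicate 3 lay nearer to the 24 h libraries than the other 0 h libraries did. VPS13B fell by 0.44 ± 0.11, with means of 78.7 ± 7.67 CPM at 0 h and 58.1 ± 2.49 CPM at 24 h (± SD, n = 3). It was called in 7 of the 18 alternatives, with fold changes from -0.52 to -0.15. Leaving out any single library other than 0 h replicate 3 ended its call, as did DESeq2. In deposited FPKM its groups overlapped.

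The fragile-site and hydrolase genes that could be tested had fold changes below 0, none of them called. MACROD2, an enzyme that removes ADP-ribose from proteins, is the longest gene here (chromosome 20 from 13995369 to 16053197, ENSG00000172264.16), and had 12, 13 and 14 counts at 0 h against 7, 8 and 10 at 24 h. These are 2.39, 2.55 and 2.47 CPM at 0 h against 1.15, 1.16 and 1.37 at 24 h, with no overlap between the groups. Its fold change was -0.99 ± 0.36 with a 95% interval from -1.75 to -0.23, its counts were few, and it was not called. WWOX, an oxidoreductase whose gene is a fragile site, was at 14.95, 13.7 and 16.1 CPM at 0 h against 14.02, 10.1 and 12.5 at 24 h. The 24 h replicate 1 of WWOX lay within the range of 0 h, and its fold change was -0.29 ± 0.17, or -0.17 without 24 h replicate 2. IMMP2L, a protease of the inner mitochondrial membrane, was at 3.99, 3.92 and 3.71 CPM at 0 h against 1.65, 2.60 and 3.29 at 24 h. All 24 h libraries of IMMP2L were below 0 h but spread widely among themselves, with -0.60 ± 0.31, or -0.39 without 24 h replicate 1.

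Among the other enzymes, EXT1, a polymerase of heparan sulfate, was the most abundant. Its level was 212, 214 and 186 CPM in the 0 h libraries, replicates 1 to 3, against 176, 149 and 157 CPM in those at 24 h. The 24 h libraries were all below 0 h, the fold change was -0.34 ± 0.10, and it was called without 0 h replicate 3 but not with all libraries. FTO, an RNA demethylase, was at 32.7, 32.3 and 30.01 CPM at 0 h against 27.1, 24.5 and 22.2 at 24 h, with no overlap and a fold change of -0.37 ± 0.13. CDKAL1, which modifies a tRNA, had -0.32 ± 0.12, and RAD51B, a recombination factor, had -0.60 ± 0.23, both with every 24 h library lower in CPM. SMYD3, a lysine methyltransferase, stood on the other side of 0 at 0.10 ± 0.14, with 16.5, 17.2 and 18.5 CPM at 0 h against 18.8, 19.1 and 18.1 at 24 h. Its CPM groups overlapped, and in FPKM every 24 h library of SMYD3 was the higher.

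Receptors and adhesion molecules lay between -0.27 and -0.15. ROBO1, the receptor of the guidance cue SLIT, was at 27.7, 21.8 and 23.3 CPM in the 0 h libraries, replicates 1 to 3, against 23.8, 20.8 and 18.8 CPM in those at 24 h. The groups overlapped, with -0.20 ± 0.15, and leaving out 0 h replicate 1 gave -0.10, while leaving out 24 h replicate 3 gave -0.13. NRXN3, a synaptic adhesion protein, was at 7.38, 6.27 and 6.36 CPM at 0 h against 6.93, 6.22 and 4.94 at 24 h, also with overlap, and its 95% interval of -0.63 to 0.32 around -0.15 ± 0.22 holds both directions. Leaving out 0 h replicate 1 gave NRXN3 -0.07, and leaving out 24 h replicates 1 and 3 in turn gave -0.26 and -0.03. PTPRG, a receptor tyrosine phosphatase, was more abundant, at 168, 149 and 151 CPM at 0 h against 139, 122 and 127 at 24 h, with -0.27 ± 0.10 and no overlap in CPM.

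Scaffolds of junctions and membrane hold ANK2 and 5 other genes, and all 6 fold changes were below 0. PARD3, a polarity protein of tight junctions, was at 172, 167 and 162 CPM in the 0 h libraries, replicates 1 to 3, against 136, 144 and 143 CPM in those at 24 h. The lowest 0 h library exceeded the highest at 24 h, and the fold change was -0.24 ± 0.09. UTRN, utrophin, which links actin to the membrane, was at 340.3, 274 and 306 CPM at 0 h against 291, 239 and 275 at 24 h. The 24 h libraries of UTRN overlapped 0 h, with -0.19 ± 0.11, which became -0.11 without 0 h replicate 1 or without 24 h replicate 2. MAGI2, a junction scaffold, was at 11.2, 6.47 and 7.06 CPM at 0 h against 8.08, 5.64 and 5.49 at 24 h. Replicate 1 at 0 h stood well above the other MAGI2 values. The fold change of MAGI2 was -0.37 ± 0.25, and became -0.09 without that library and -0.56 without 24 h replicate 1. Its paralog MAGI1 had -0.44 ± 0.12 with no overlap in CPM or FPKM, and was called without 0 h replicate 3 but not with all libraries. LPP, a focal adhesion protein, had -0.30 ± 0.10, no overlap in CPM, and a call without 0 h replicate 3.

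Among the regulators of the actin skeleton, TRIO, a guanine nucleotide exchange factor, was the most abundant. Its level was 487, 434 and 389 CPM in the 0 h libraries, replicates 1 to 3, against 402, 345 and 338 CPM in those at 24 h. Replicate 3 at 0 h was below replicate 1 at 24 h, so the groups overlapped, and the fold change was -0.27 ± 0.11. DOCK1, an exchange factor for Rac, was at 133, 132 and 124 CPM at 0 h against 118, 96.4 and 112 at 24 h, without overlap and with -0.26 ± 0.10. The formins, which nucleate actin filaments, were near the median gene, at -0.13 ± 0.13 for DIAPH2 and 0.06 ± 0.11 for DIAPH3, both with overlapping CPM.

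Vesicle traffic genes other than VPS13B were all below 0. TBC1D5 regulates the retromer and has the longest exon-free stretch of the 32, at 702 kb, before its nearest RefSeq start. Its replicates 1 to 3 were at 65.2, 59.8 and 49.96 CPM at 0 h against 51.3, 41.8 and 45.8 CPM at 24 h. The 0 h replicate 3 lay below the highest 24 h library, and the fold change was -0.33 ± 0.13. EXOC4, a subunit of the exocyst, had -0.22 ± 0.11, and the related proteins LRBA and NBEA had -0.11 ± 0.10 and -0.12 ± 0.13. Of these NBEA had no overlap in CPM, by a margin of less than 0.1 CPM.

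Genes of gene regulation were the nearest to no change. FNDC3B, a membrane protein of the endoplasmic reticulum grouped here as a regulator of differentiation, had the highest FPKM of the list. In CPM it was at 498, 503 and 476 CPM at 0 h against 517, 470.3 and 482 at 24 h, with overlap and a fold change of -0.01 ± 0.10. In FPKM every 24 h library of FNDC3B was the higher, so its direction turns with the scaling. The transcription factor FOXP1 (-0.13 ± 0.11), the silencing scaffold TNRC6B (-0.13 ± 0.11) and the Notch coactivator MAML2 (0.10 ± 0.14) all had overlapping CPM.

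**Figure D2:**
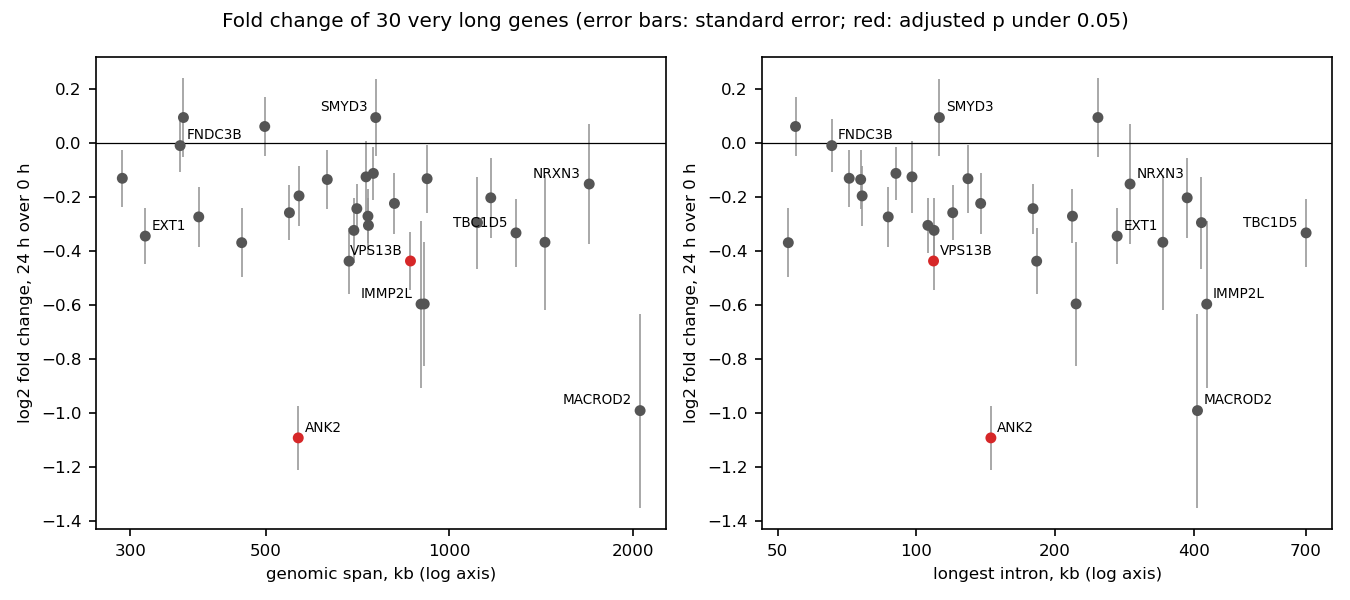
Log2 fold change (24 h over 0 h, TMM scaling) of the 30 tested very long genes against genomic span (left) and longest intron (right), both on log axes. Longest intron is the longest stretch free of exons in all transcripts of a gene. Points are genes, bars are ± 1 standard error of the fit, and the genes in red, ANK2 and VPS13B, passed the threshold; among the 11 genes of 800 kb or more all fold changes are below 0.

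Within the list the lower values lay with the longer genes. The 7 genes under 500 kb had a median of -0.13 and 5 of them were below 0. The 12 genes from 500 to 800 kb had a median of -0.25, with 11 below 0, and the 11 genes of 800 kb or more had a median of -0.33, with 11 below 0. Across the 30 genes Spearman's correlation of fold change was -0.28 with span, -0.44 with the longest intron, -0.08 with exon length, -0.30 with GC content and 0.27 with mean level. Without TBC1D5, whose GENCODE start is far from the RefSeq one, it was -0.26 with span and -0.43 with the longest intron, and the 10 other genes of 800 kb or more had a median of -0.33. These are descriptions across genes that share the same 6 libraries, and the genes with the lowest levels have the largest errors.

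Library by library, the medians of the very long genes differed among the 24 h libraries as well as between the times. The median over the 30 genes of log2(CPM + 0.5) minus each gene's mean at 0 h was 0.07, 0.01 and -0.06 in the 0 h libraries, replicates 1 to 3, against -0.13, -0.35 and -0.27 in those at 24 h. No 24 h library reached the lowest at 0 h, and 24 h replicate 1 lay closest to it. For all genes tested the same median stayed between -0.01 and 0.02 in every library. As a percentage of all counts, the 30 genes together took 0.329, 0.315 and 0.288 in the 0 h libraries, replicates 1 to 3, against 0.291, 0.252 and 0.267 in those at 24 h. On this measure the groups overlapped, because 0 h replicate 3 was below 24 h replicate 1.

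The same can be read from each pair of a 0 h and a 24 h library, which share libraries among themselves and are not 9 independent comparisons. In change from 0 h to 24 h, 19 to 28 of the 30 genes lay below the median gene of the pair. The fewest were between 0 h replicate 3 and 24 h replicate 1, where the median distance was -0.08, and the largest distance, -0.44, was between 0 h replicate 1 and 24 h replicate 2. By this change 14 genes were below the median gene in all 9 pairs, 5 were in 8 pairs, and 7 in 7 pairs. The remaining 4 were below it in fewer pairs, FNDC3B in 5, DIAPH3 in 4, MAML2 in 2 and SMYD3 in 1. Pairs were not counted in this way for all genes tested, so nothing is read from these counts. Of the other tested genes of 300 kb or more, 62.0% to 79.3% were below the median gene in a given pair.

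**Figure D3:**
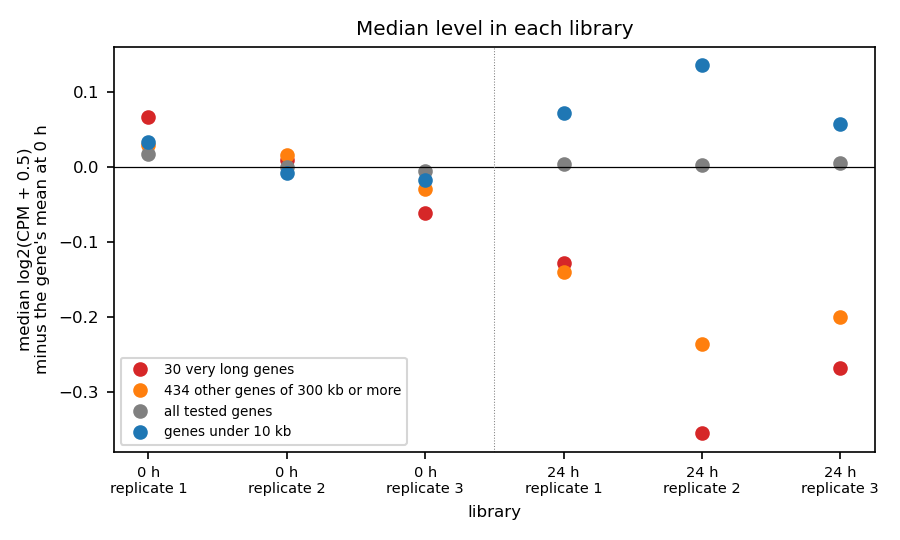
Median over genes of log2(CPM + 0.5) minus the gene's mean at 0 h, in each of the 6 libraries, for the 30 very long genes (red), the 434 other tested genes of 300 kb or more (orange), all tested genes (grey) and genes under 10 kb (blue). The red and orange points lie below 0 in all 24 h libraries, and the red points run from -0.13 to -0.35 there.

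Other genes of like span had values near those of the listed genes, and no test of that difference was made. Tested genes were put in classes by their GENCODE 29 span, without regard to their values. The median fold change was 0.08 in 2895 genes under 10 kb, 0.05 in 3589 genes of 10 to 30 kb, -0.02 in 4328 genes of 30 to 100 kb, -0.08 in 2041 genes of 100 to 300 kb and -0.21 in 463 genes of 300 kb or more. With the listed genes left out, the last class had 434 genes, a median of -0.21, 78.6% below 0, 20 called lower and 2 called higher. With all libraries 2.08% of all genes tested were called lower and 0.866% higher. Without 0 h replicate 3 the whole class had 95 called lower and 4 higher, where 6.72% and 4.18% of all genes were. Leaving out 0 h replicate 2 gave 6 called lower, against 0.756% of all genes. Leaving out 24 h replicates 2 and 3 in turn gave 5 and 8, against 0.672% and 0.98% of all genes. The 131 other genes of 500 kb or more had a median of -0.32, 88.5% below 0, 9 called lower and 0 higher. The difference between the medians of genes of 300 kb or more and under 10 kb was -0.30, and it ran from -0.34 to -0.14 over the 18 alternatives, with the values nearest 0 from no filter on low counts and from DESeq2. With the totals behind FPKM the class medians were 0.32, 0.29, 0.22, 0.16 and 0.02 in the same order, so that the order of the classes held and their sign did not. With no filter and with DESeq2, where many genes of few counts enter, the median of genes under 10 kb was -0.08 and -0.11, below that of the 10 to 30 kb class, so the order of the short classes turns with the filter.

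**Figure D4:**
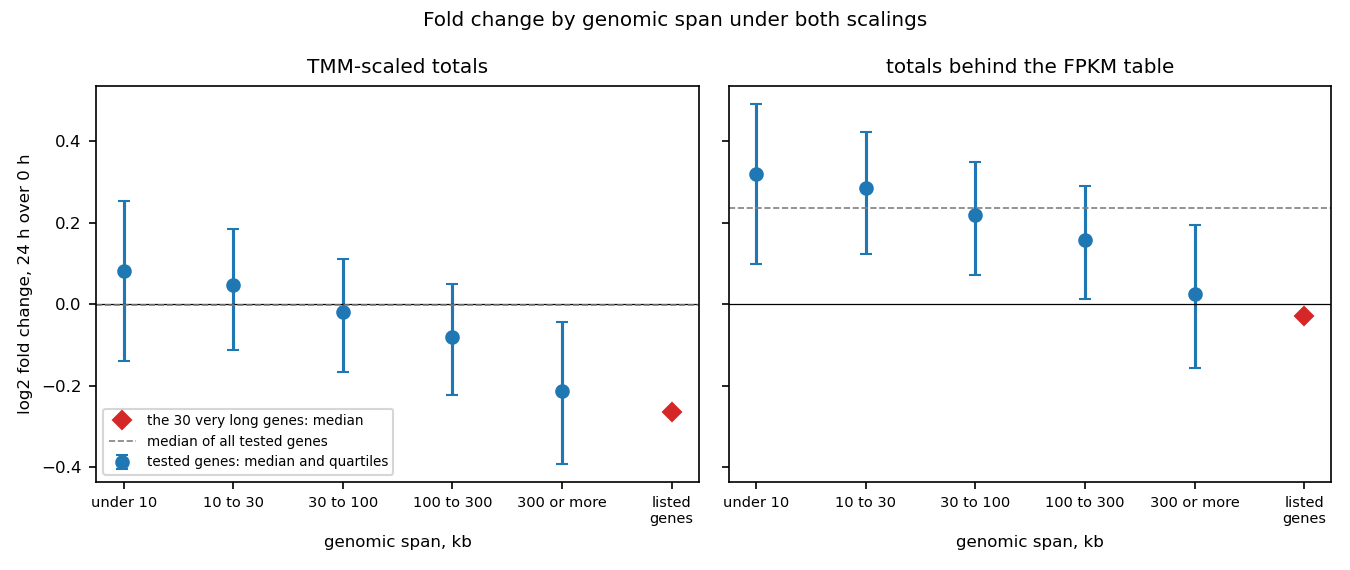
Median log2 fold change (24 h over 0 h) of tested genes in 5 classes of genomic span, with bars from the lower to the upper quartile of genes, and the median of the 30 listed genes (red). The left panel uses TMM-scaled totals and the right panel the totals behind the FPKM table; the medians go down from short to long genes in both, from 0.08 to -0.21 and from 0.32 to 0.02, around a different median of all genes (dashed).

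Span goes with other properties of genes, and their values are given beside it. Across 13316 tested genes with a span, Spearman's correlation of fold change was -0.23 with span, -0.21 with exon length, 0.16 with transcript GC content and 0.10 with mean CPM. Genes were also split into tertiles of each property, and the medians of the 434 other genes of 300 kb or more were set against those of genes under 10 kb. From the lowest to the highest tertile by GC the long genes were at -0.20, -0.20 and -0.27 and the short genes at -0.02, 0.04 and 0.13. By exon length the long genes were at -0.18, -0.17 and -0.22 and the short genes at 0.09, 0.05 and 0.08. By mean CPM the long genes were at -0.26, -0.21 and -0.18 and the short genes at -0.02, 0.13 and 0.11. The long genes were lower in all 9 of these tertiles. Some groups are small, with 24 long genes in the lowest tertile by exon length and 76 short genes in the highest. Genes were not matched within a tertile. Of the 30 listed genes, 26 are in the highest tertile by exon length and 1 is in the highest tertile by GC.

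Other very long or fragile-site genes were taken as a list of 60 symbols, of which 41 were tested. Of these 5 fell (12.2%), 0 rose and 36 did not pass, with a median of -0.22, where 2.08% of all genes tested were called lower and 0.866% higher. The falls were those of the protein kinases C PRKCA (-0.72 ± 0.13) and PRKCE (-0.65 ± 0.12), the matrix protein THSD4 (-0.75 ± 0.14), AGAP1, a GTPase-activating protein of ARF (-0.50 ± 0.11), and the receptor phosphatase PTPRM (-0.45 ± 0.12). PRKCA was at 96.3, 91.5 and 67.4 CPM at 0 h against 54.4, 50.5 and 49.5 at 24 h, with 0 h replicate 3 nearest to the 24 h libraries. Leaving out 0 h replicates 1, 2 and 3 in turn gave 3, 2 and 10 falls in this list, and 209, 103 and 923 over all genes. Leaving out 24 h replicates 2 and 3 gave 1 and 3, and 92 and 134 over all genes. Of the 5 genes PRKCE was the only one called in all 6 of the fits without 1 library. By limma on log2(FPKM + 1) the list had 0 falls.

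The machinery of transcription elongation was read from a list of 44 genes, all tested. Of these 2 fell (4.55%), 0 rose and 42 did not pass, and the median was -0.06. Over all genes tested 2.08% were called lower and 0.866% higher, so the list's count of 2 lies near the rate of all genes. PCF11, a factor of transcript cleavage and termination, fell by 0.71 ± 0.10. Its level was 92.3, 89.97 and 89.9 CPM in the 0 h libraries, replicates 1 to 3, against 54.6, 54.8 and 57.05 CPM in those at 24 h, with the 24 h libraries close together and far below those at 0 h. TOP2A, a topoisomerase of dividing cells, fell by 0.47 ± 0.12, at 328, 332 and 408 CPM at 0 h against 227, 252 and 294 at 24 h. CDK9, the kinase that releases paused polymerase, did not pass, at 0.36 ± 0.12. NELFB, a subunit of the pausing factor NELF, did not pass either, at 0.40 ± 0.11. The same held for AFF1, at -0.32 ± 0.10, and AFF4, at -0.29 ± 0.10. Of the 44 genes, 26 had a fold change below 0. Of the 18 alternatives, CDK9 was called higher in 4 and NELFB in 7, both with the totals behind FPKM, by both limma fits and with the replicate block, and NELFB also with no filter and where 0 h replicate 3 or both libraries numbered 3 were left out. PCF11 was called under all 18 alternatives, and leaving out 0 h replicate 2 or either of 24 h replicates 1 and 2 ended the call of TOP2A and left 1 fall in the list. Without 0 h replicate 3 the list had 4 falls and 1 rise, where 6.72% of all genes were called lower and 4.18% higher. With the totals behind FPKM it had 1 fall and 7 rises, where 1.46% of all genes were called lower and 17.6% higher. By limma on log2(FPKM + 1) and log2(FPKM + 0.1), 12.4% and 12.2% of all genes were called higher, and with the replicate block 5.52%.

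Leaving out single libraries changed how many very long genes were called. Without 0 h replicate 3 there were 7 called lower (ANK2, EXT1, LPP, MAGI1, TBC1D5, TRIO and VPS13B), where 6.72% of all genes tested were called lower in the same fit, against 2.08% with all libraries. Without any other single library there was 1, ANK2, where 0.672% to 1.53% of all genes were called lower. The median of the 30 genes stayed between -0.32 and -0.21 in these 6 fits. The small fold changes of DIAPH2, DIAPH3, LRBA, NBEA, FOXP1, TNRC6B, MAML2, SMYD3 and FNDC3B each moved by over 1.5 times in at least 1 of these fits. DIAPH3 went to -0.01 without 0 h replicate 2, and FNDC3B lay from -0.05 to 0.02, so their direction is not given by these libraries. The label under which these genes were listed calls them sensitive to blocked transcription. These data hold no direct measure of transcription, so that part of the label was not tested, and the genes are called here by their length.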

How the data were processed

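The authors deposited whole-number read counts for 28565 genes and FPKM, in hundredths, for 28561. The submitters' processing notes name bcl2fastq, TopHat2, edgeR and GRCh38. Versions, read counter, annotation and use of strand were not found there or in the labels. Genes differing between 24 h and 0 h were tested with edgeR 4.0.16 (limma 3.58.1, R 4.3.3), using TMM, filterByExpr and no covariate, with Benjamini-Hochberg adjustment across 13389 genes. The code was tested on simulated data. Spans come from GENCODE 29, in which 97.8% of gene IDs were found. Totals behind FPKM were recovered from single-transcript genes with more than 300 counts.

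The listed genes, the other gene lists and the tests were chosen with earlier results of these data known. Listed genes are given in full if called, among the 6 highest by FPKM or among the 6 longest. Alternatives were other scalings and filters, protein-coding genes alone, DESeq2 1.42.0, limma on log2(FPKM + a pseudocount of 1 or 0.1), a replicate block and left-out libraries. Leaving out TBC1D5 from the relations to span was added after seeing the data.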

Additional observations from a re-analysis of the deposited data

How the results depend on the processing

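Over 18 alternatives, the median of the 30 very long genes minus that of all genes kept its sign, and ANK2 stayed called. The median itself was -0.26 and became -0.0289 with the totals behind FPKM, -0.0296 by limma on log2(FPKM + 0.1) and -0.0271 by limma on log2(FPKM + 1). The 2 falls among them became 1 by DESeq2, with total counts, the totals behind FPKM or no filter, and by both limma fits. They became 5 without both libraries numbered 3 and 12 with the replicate block. In those last fits 4.02% and 7.16% of all genes tested were called lower, against 2.08% in the main fit. Calls over all 13389 genes tested were 116 higher and 278 lower, and became 2354 higher with the totals behind FPKM. With no filter there were 345 higher among 28565 genes, or 1.21% against 0.866% in the main fit. They became 1632 and 136 by limma on log2(FPKM + 0.1), and 1657 and 138 by limma on log2(FPKM + 1). Without both libraries numbered 3 they became 306 and 539.

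In the 463 genes of 300 kb or more, 2 higher and 22 lower became 20 higher with the totals behind FPKM. In that fit 17.6% of all genes tested were called higher and 1.46% lower. By either limma fit they became 9 and 5. With pseudocounts of 1 and 0.1, limma called 12.4% and 12.2% of all genes higher, and 1.03% and 1.02% lower. They became 1 higher by DESeq2 and 56 lower without both libraries numbered 3, where 4.02% of all genes were called lower. The smaller set of 154 genes of 500 kb or more had 0 higher and 11 lower in the main fit. That is 7.14% called lower, against 4.75% of the 463 genes. The distance of their median to that of all genes, -0.21, became -0.16 by limma on log2(FPKM + 1) and -0.31 for genes of 500 kb or more. The other long genes (0 higher, 5 lower) became 2 and 3 with the totals behind FPKM, 0 lower by either limma fit, and 10 lower without both libraries numbered 3. The elongation genes (0 higher, 2 lower) became 7 and 1 with the totals behind FPKM, and 6 and 1 by either limma fit. They became 1 higher with no filter, where 1.21% of all genes were called higher. Without both libraries numbered 3 they became 2 and 4, where 2.28% of all genes were called higher and 4.02% lower. The shares given above for the FPKM and limma fits stand beside the counts of both lists. The cause was not tested.

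With the replicate block, calls were 739 higher and 959 lower over all genes, 6 and 110 in genes of 300 kb or more, 14 lower among other long genes, and 4 and 6 among elongation genes. Deviations of same-numbered libraries correlated at 0.24, -0.02 and 0.42 for numbers 1, 2 and 3. For numbers 1 and 3 these were the best matches, while 24 h replicate 2 correlated best with 0 h replicate 1. Whether the numbers pair the libraries is not settled by these values, and the main fit took no pairing.

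Without 1 library, calls over all genes ran from 21 to 574 higher and from 92 to 923 lower, the very long genes from 1 to 7 lower with medians from -0.32 to -0.21, genes of 300 kb or more from 0 to 4 higher and from 5 to 95 lower, other long genes from 1 to 10 lower, and elongation genes from 0 to 1 higher and from 1 to 4 lower. The highest counts were without 0 h replicate 3. Depth limits FHIT, PRKG1 and MACROD2 most.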

Other observations

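Among called genes of 300 kb or more outside the list, 5 had larger falls than ANK2, all at few counts, and they were chosen after their values were seen. PAPPA2, a protease of IGF-binding proteins, had 19, 24 and 16 counts at 0 h against 0, 2 and 2 at 24 h, too few at 24 h for its fitted fold change to be given. CNTN4, a neuronal adhesion molecule, had 29, 33 and 51 counts at 0 h against 11, 21 and 18 at 24 h, and fell by 1.53 ± 0.29 on the log2 scale. NLGN1, a postsynaptic ligand of neurexins, had 25, 32 and 47 counts at 0 h against 14, 19 and 12 at 24 h, with -1.55 ± 0.30. NEBL, an actin-binding protein, was at -1.39 ± 0.33 and FRY, a large protein of cell morphology, at -1.36 ± 0.28. In all 5 every 24 h library was below every 0 h library in CPM, against 11.7% of all genes tested. They were picked for their large called falls, so nothing is read from that. The genes called higher in that class were RUNX2, a transcription factor (0.56 ± 0.14), and PRICKLE2, a planar polarity protein (0.41 ± 0.10). PAPPA2 and CNTN4 were called under all 18 alternatives, NLGN1 in 17, RUNX2 and PRICKLE2 in 13, FRY in 12 and NEBL in 10. Leaving out 24 h replicate 2 ended the calls of NEBL, FRY, RUNX2 and PRICKLE2, as did leaving out 0 h replicate 2, and leaving out 24 h replicate 3 ended that of NLGN1.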
